A study of Drosophila melanogaster with 2 samples.

Results

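Small nuclear RNA (snRNA) genes were examined for peaks of GFP-tagged mod(mdg4) in Drosophila melanogaster. The set comprised all genes that Ensembl release 115 annotates as snRNA on the 6 chromosome arms of dm6, 32 of 18164 annotated genes, with transposable elements left out. All 32 carry the same symbol and coordinates in RefSeq. A gene was counted as carrying a peak when the summit of a peak lay within 500 bp of its annotated start. Peaks came from chromatin immunoprecipitation with an anti-GFP antibody from whole wandering larvae of the 3rd instar, males and females pooled, of a transgenic line that stably expresses mod(mdg4) with GFP at its C terminus. The 2 biological replicates, numbered 3 and 4, formed 1 group, and the control library was not used here. The signal is that of the tagged protein across all tissues of the animal, and binding in fewer cells cannot be told apart from weaker binding per cell. Per-sample read depth is unknown, because the lists hold a signal for each peak and no counts.

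The U1, U2, U4, U5 and U6 snRNAs are the RNA core of the major spliceosome, which removes most introns. U11, U12, U4atac and U6atac, together with U5, serve the minor spliceosome. U7 acts in the 3′ end processing of histone mRNA, and 7SK RNA holds the elongation factor P-TEFb in an inactive complex. Most snRNA genes are transcribed by RNA polymerase II, whereas U6, U6atac and 7SK genes are transcribed by RNA polymerase III. In Drosophila both kinds carry a proximal sequence element, PSEA, which the snRNA activating protein complex (SNAPc) binds a short way upstream of the start. mod(mdg4) encodes a family of BTB-domain proteins best known as partners of su(Hw) and other insulator proteins.

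Of the 32 snRNA genes, 8 had a summit of the thresholded list within 500 bp, namely U5:63BC, U4:39B, U1:95Ca, U2:34ABb, U6:96Ac, U6:96Ab, U7 and U1:21D. The sequence around the PSEA of these 8 genes is shown first, because it is the feature that nearly all snRNA genes shared. Each run holds 25 bases of the dm6 genome from the RefSeq assembly, 5′ to 3′ on the strand of the gene, and the capitals mark the match to ATTCNCAA.
U5:63BC, chr3L:3090739-3090763, plus strand: ataATTCCCAAcgtgttaaagcagt
U4:39B, chr2L:21215217-21215241, minus strand: ataATTCCCAActgcttctggcagc
U1:95Ca, chr3R:23859668-23859692, minus strand: gcaATTCCCAActggttttagctgc
U2:34ABb, chr2L:13215776-13215800, plus strand: agaATTCCCAActgcttctggccgt
U6:96Ac, chr3R:24557151-24557175, plus strand: ataATTCTCAActtctttttccaga
U6:96Ab, chr3R:24556628-24556652, plus strand: ataATTCTCAActgctctttcctga
U7, chr3L:3593762-3593786, plus strand: ataATTCCCAActgctactggctgc
U1:21D, chr2L:901692-901716, minus strand: ataATTCCCAActgcttctggccat
For comparison, the same stretch is given for 7 genes without a thresholded summit, with a U1, U2, U4, U5 and U6 gene among them and with U6atac and 7SKa, which are also RNA polymerase III genes.
U5:34A, chr2L:13244786-13244810, plus strand: atgATTCCCAAcatgttcaagctcg
U4:38AB, chr2L:19810671-19810695, plus strand: gtaATTCCCAAatggttctggcttg
U1:95Cb, chr3R:23827808-23827832, plus strand: ataATTCCCAActggttctggctac
U2:34ABa, chr2L:13212155-13212179, minus strand: acaATTCCCAActgcttctggccgt
U6:96Aa, chr3R:24556023-24556047, plus strand: atgATTCCCAAgtacatattctgca
U6atac, chr2L:8389660-8389684, plus strand: aaaATTCCCAAgttctttttccgca
7SKa, chr3R:7475037-7475061, minus strand: gtaATTCCCAAgtgcttatttggtc
The capitals began 56 to 65 bases upstream of the annotated start in 31 of the 32 genes, that is, in 8 of 8 genes with a thresholded summit and in 23 of 24 genes without one. The exception was 7SKb, which had no match. The element was thus present in front of genes with and without a peak of tagged mod(mdg4).

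For the 3 genes with the strongest peaks, the whole stretch from 150 bases upstream to the last base before the start is shown, because their summits lay inside it. The capitals again mark ATTCNCAA.
U5:63BC, chr3L:3090651-3090800, plus strand: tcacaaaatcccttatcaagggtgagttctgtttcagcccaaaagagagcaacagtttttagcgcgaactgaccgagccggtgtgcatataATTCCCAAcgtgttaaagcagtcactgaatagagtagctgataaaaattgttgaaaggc
U4:39B, chr2L:21215179-21215328, minus strand: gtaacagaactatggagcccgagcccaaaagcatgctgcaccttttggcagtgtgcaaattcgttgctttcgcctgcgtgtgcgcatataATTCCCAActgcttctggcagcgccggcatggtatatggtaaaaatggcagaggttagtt
U1:95Ca, chr3R:23859631-23859780, minus strand: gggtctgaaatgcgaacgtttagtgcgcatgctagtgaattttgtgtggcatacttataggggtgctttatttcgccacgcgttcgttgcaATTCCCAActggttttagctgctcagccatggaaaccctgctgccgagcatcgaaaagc
The summit of the U5:63BC peak, at base 3090686, lay 56 bases upstream of the first capital of its element. The summits of U4:39B and U1:95Ca lay 36 and 42 bases upstream of theirs. These are the summits of the pooled and thresholded lists, and the replicates placed them differently. In replicates 3 and 4 the summit lay 113 and 139 bp upstream of the start at U5:63BC. At U4:39B and at U1:95Ca it lay 92 and 76 bp upstream. No fixed spacing between summit and element can be read from these values.

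The share of snRNA genes with a thresholded summit was 25.0%, with an exact 95% binomial interval of 11.5 to 43.4% that covers the number of genes only. The same rule called 37.6% of tRNA genes (109 of 290), 8.18% of snoRNA genes (22 of 269), 16.5% of protein-coding genes (2295 of 13945) and 15.0% of all annotated genes (2723 of 18164). The shares of protein-coding and tRNA genes lay inside the snRNA interval and that of snoRNA genes lay below it. No test of these differences was made, and with 32 genes the snRNA share was not separated from that of protein-coding genes.

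**Figure D1:**
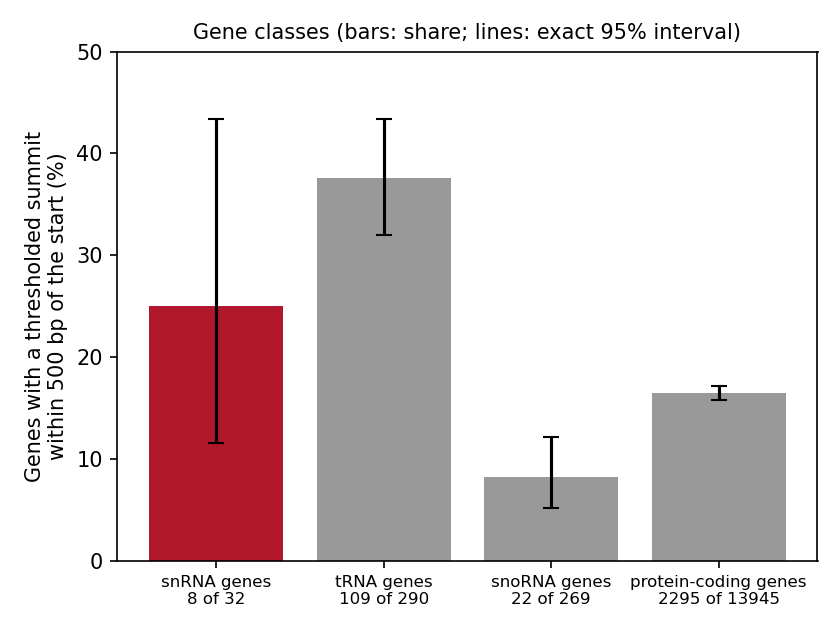
Share of genes of each class with a summit of the thresholded list within 500 bp of the gene start, in percent, with bars for the share and lines for the exact 95% binomial interval. The snRNA bar stands at 25.0% with an interval of 11.5 to 43.4%, which takes in the 16.5% of protein-coding genes and the 37.6% of tRNA genes.

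Of the 8 distinct thresholded peaks at snRNA genes, 5 were among the 3147 strongest of the list. The thresholded list holds 6294 peaks, of which 21 lie on the mitochondrial genome, with a median place of 11. Places below were counted over a whole list, from 1 for the strongest by signal, the enrichment value deposited for each peak. The 8 distinct summits at snRNA genes had a median signal of 266.2, with a range of 124.0 to 1117.7, against a median of 185.6 over all 6273 peaks on the arms. For the summit nearest to each gene start, the median place was 1726.5 for snRNA genes, against 3363 for tRNA, 3469 for snoRNA and 2680 for protein-coding genes. These medians rest on 8 snRNA genes and spread widely, because 3 genes stood within the first 261 places and 2 stood at places 4315 and 5618. They are given as a description, without a test.

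In 6 of the 8 genes the nearest summit lay between 150 bp and 1 bp upstream of the start, against 34.9% of the tRNA, 27.3% of the snoRNA and 46.7% of the protein-coding genes with a summit. The other two, U7 and U6:96Ab, had it downstream. Over the 8 genes the median distance was 98.5 bp upstream.

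U5:63BC, one of the 7 genes for the U5 snRNA, which aligns the exon ends, had the strongest peak. Its peak spanned bases 3090506 to 3090840 of arm 3L, 335 bp wide, with the summit 115 bp upstream of the start (gene FBgn0003938, plus strand). The signal was 634.2 in replicate 3, at place 83 of 29999, and 477.6 in replicate 4, at place 75. In the pooled and thresholded lists it was 1117.7, at place 77. Among the peaks on the arms it was the 59th, and the 35th of the 3636 arm peaks with no start site of a protein-coding gene within 500 bp. The nearest such start site was 8708 bp away, so the U5:63BC peak stood apart from any coding promoter.

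U4:39B (FBgn0003930) encodes U4, which pairs with U6 and keeps it inactive until the spliceosome is activated. The gene lies on the minus strand of arm 2L, with its start at base 21215178, in an intron of Atg18b on the same strand. Its peak spanned bases 21215154 to 21215411, 258 bp, with the summit 96 bp upstream. The signal was 377.9 in replicate 3, at place 306, and 372.6 in replicate 4, at place 146. The pooled signal was 745.4, at place 211, and no coding start site lay nearer than 3270 bp. Both replicates placed this intronic peak among their strongest.

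U1:95Ca (FBgn0004185) encodes U1, which recognises the 5′ splice site. It occupies bases 23859467 to 23859630 of arm 3R on the minus strand, outside protein-coding genes. Its peak, at bases 23859596 to 23859915, had its summit 101 bp upstream. The signal was 418.5 in replicate 3, at place 242, and 285.5 in replicate 4, at place 267, with 687.4 and place 261 in the pooled list. The nearest coding start site was 30321 bp away, the greatest such distance among the 8 summits.

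U2:34ABb (FBgn0004192, arm 2L, bases 13215839 to 13216030, plus strand) encodes U2, which pairs with the branch point, and was the only gene with 2 thresholded summits. The stronger, 123 bp upstream, had a signal of 285.0 at place 1510, and the weaker, 193 bp downstream of the start, had 140.4 at place 4789. Near the upstream summit, replicate 3 had 182.3 at place 1386 and replicate 4 had 99.6 at place 2406. Near the downstream one, replicate 3 had 56.0 at place 9004 and replicate 4 had 80.7 at place 3420. The upstream summit was the stronger of the pair in both replicates. It was also the only one of the 8 with a coding start within 500 bp, that of kek4, 366 bp away. Replicate 3 had a further summit, 158.8 at place 1800, which lay 96 bp from the kek4 start and had no counterpart within 500 bp of U2:34ABb in replicate 4 or in the pooled list. What the kek4 promoter contributes was not tested.

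The U6 genes encode the snRNA at the catalytic centre of the spliceosome, and 3 of them stand in a row on arm 3R. U6:96Ac (FBgn0004190, bases 24557215 to 24557321, plus strand) had a summit 103 bp upstream, with a signal of 247.5 at place 1943. The signal was 137.9 in replicate 3, at place 2328, and 111.1 in replicate 4, at place 1934. The same summit lay 420 bp downstream of the start of U6:96Ab (FBgn0004189, bases 24556692 to 24556798), which was counted through it and had no other summit within 500 bp in any list. The summit thus lay between the 2 genes, on the upstream side of U6:96Ac. U6:96Aa (FBgn0004188), the third gene of the row, had no summit within 500 bp in any list.

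U7 (FBgn0053504, arm 3L, bases 3593823 to 3593893, plus strand, in an intron of Eip63E) had its thresholded summit 231 bp downstream, beyond the end of the 71 bp gene, with a signal of 150.2 at place 4315. Replicate 3 had 120.1 at place 2933, 270 bp downstream. Replicate 4 had 52.6 at place 6517, 31 bp downstream, and 28.4 at place 14623, 230 bp downstream. The replicates thus differed in where the strongest summit of the gene lay, and neither placed one upstream of the start.

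U1:21D (FBgn0003916, arm 2L, bases 901491 to 901654, minus strand) had the weakest thresholded summit, 47 bp upstream, with a signal of 124.0 at place 5618. Replicate 4 had 86.0 at place 3081, 46 bp upstream. Replicate 3 had 34.9 at place 16741, 86 bp upstream, and 43.5 at place 12587, 117 bp downstream. This peak was therefore mainly that of replicate 4. The start of scaRNA:MeU1:95C-A24, a guide RNA gene for the modification of U1, also lay within 500 bp of the summit.

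**Figure D2:**
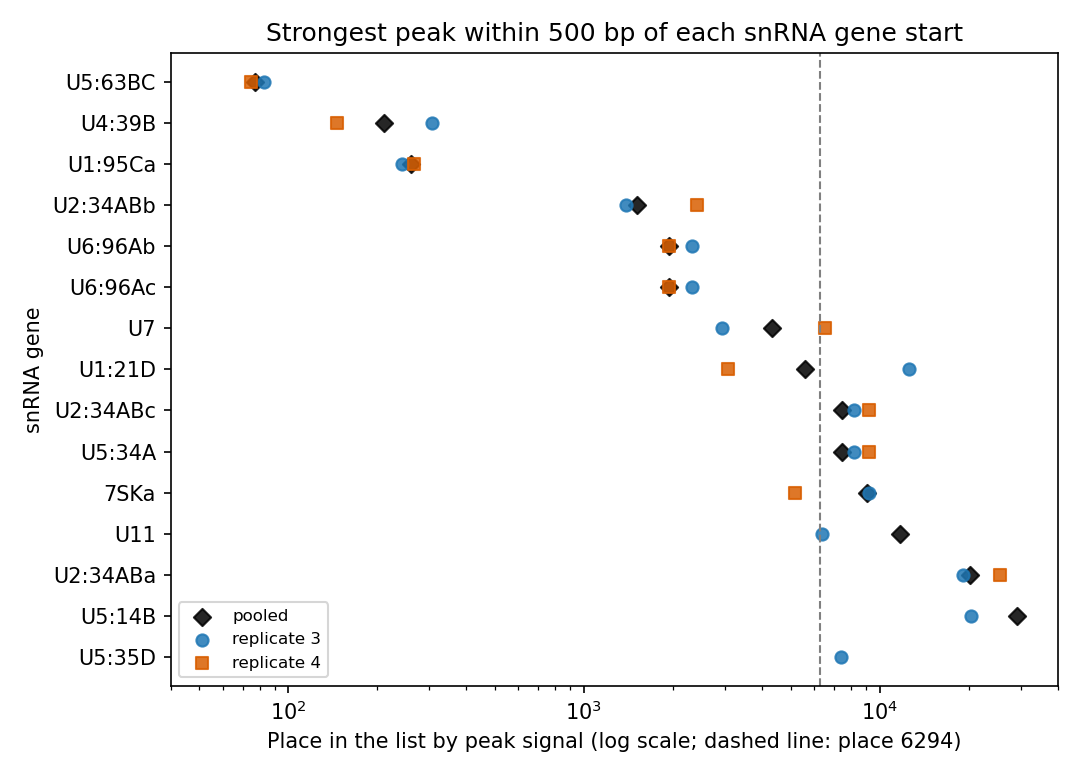
Place by signal, on a log axis, of the strongest peak with its summit within 500 bp of each snRNA gene start in the pooled, replicate 3 and replicate 4 lists, for the 15 genes with a peak in any of them, with a dashed line at place 6294, the length of the thresholded list. U5:63BC stands at places 77, 83 and 75, and the symbols of U1:21D lie far apart, at 5618, 12587 and 3081.

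To set the replicates side by side, the signal of the strongest peak within 500 bp of each gene start was taken in each replicate. It was divided by the median of its own list of 29999 peaks. U5:63BC then had 16.68 and 17.19, with a mean of 16.93 ± 0.36 (SD, n = 2). U4:39B had 9.94 and 13.41, with a mean of 11.67 ± 2.45, and U1:95Ca had 11.01 and 10.27, with a mean of 10.64 ± 0.52. U5:63BC was above the other two in both replicates, whereas U4:39B and U1:95Ca overlapped.

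The next pair also overlapped. U2:34ABb had 4.79 and 3.59, with a mean of 4.19 ± 0.85, and the shared U6:96Ac and U6:96Ab peak had 3.63 and 4.00, with a mean of 3.81 ± 0.26. U7 had 3.16 and 1.89, with a mean of 2.53 ± 0.89, and U1:21D had 1.14 and 3.09, with a mean of 2.12 ± 1.38. The ranges of U7 and U1:21D overlapped, and both lay below those of U2:34ABb and the U6 genes. Of the 12 snRNA genes with a peak in both replicate lists, only U1:21D had strongest peaks that differed by more than 2-fold after scaling. Its ratio of replicate 3 over replicate 4 was 0.37. The strongest peaks of U7, U1:21D, 7SKa and U2:34ABa lay at different positions in the 2 replicates, so their values compare unlike peaks. Near the thresholded summit, U7 had 3.16 in replicate 3 and 1.02 in replicate 4, and U1:21D had 0.92 and 3.09. With 2 replicates and 1 group, no test between these genes was made.

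**Figure D3:**
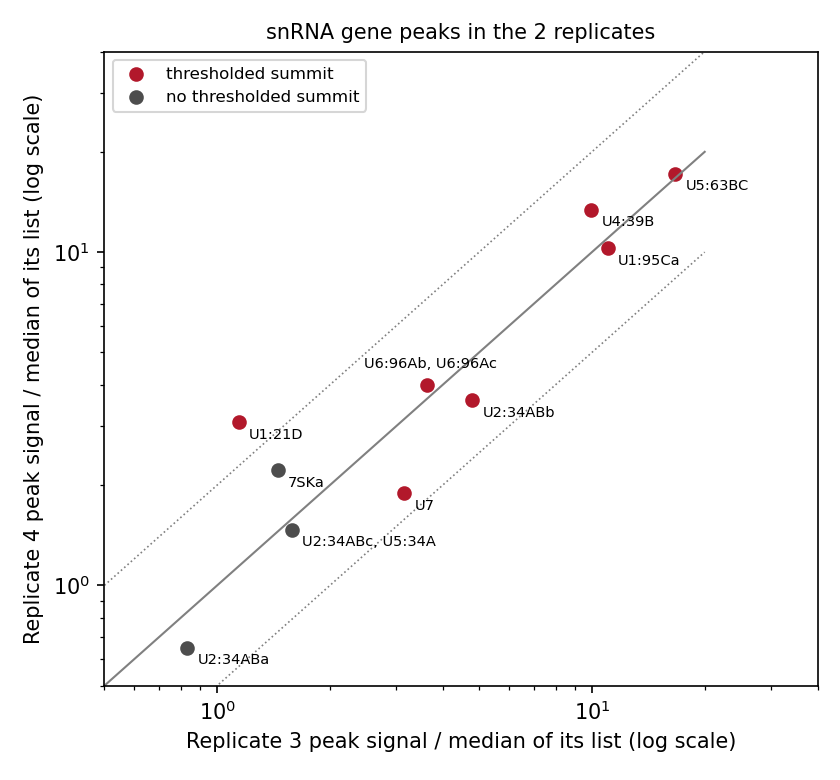
Signal of the strongest peak within 500 bp of each snRNA gene start, divided by the median of its list, in replicate 3 (x axis) and replicate 4 (y axis), both on log scales, with a solid line at equality, dotted lines at a 2-fold difference and 1 point for genes that share a peak. U5:63BC lies at 16.68 and 17.19, and U1:21D, at 1.14 and 3.09, is the only point outside the dotted lines.

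The full pooled and replicate lists reach far weaker peaks. A summit within 500 bp was found in the pooled list for 14 of 32 snRNA genes (43.8%), against 32.5% of protein-coding genes. In replicate 3 it was found for 15 snRNA genes (46.9%), against 34.4%, and in replicate 4 for 12 (37.5%), against 36.6%. Of tRNA genes, 69.3% had one in the pooled list, 67.9% in replicate 3 and 73.4% in replicate 4, above the snRNA share each time. Of snoRNA genes, 25.7%, 23.0% and 36.4% had one, below the snRNA share each time. The replicate 4 share was thus close to that of protein-coding genes.

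Of the 24 snRNA genes without a thresholded summit, 7 had a weaker summit in at least one full list and 4 had one in both replicate lists. U2:34ABc and U5:34A are divergent neighbours on arm 2L, with starts at bases 13244561 and 13244848, and shared a single peak between them. It had a signal of 99.7 at place 7437 of the pooled list, 60.1 at place 8184 in replicate 3 and 40.8 at place 9215 in replicate 4, with the pooled summit 137 bp upstream of U2:34ABc and 150 bp upstream of U5:34A. In the pooled list it was the strongest snRNA gene peak below the threshold, next to U1:21D at place 5618 above it. It lay upstream of both genes in every list.

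7SKa (FBgn0065099) had 3 weak pooled summits, the strongest with 85.7 at place 9058, 330 bp upstream. Replicate 3 had 55.2 at place 9188, 435 bp downstream, and replicate 4 had 61.8 at place 5177, 132 bp downstream. The replicates did not place the strongest 7SKa summit at the same position.

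U11, in an intron of Fie, had a pooled summit 2 bp upstream of the start, with 70.1 at place 11724, and a replicate 3 summit with 71.8 at place 6372. Replicate 4 had none within 500 bp, so the U11 peak rested on replicate 3. U2:34ABa had 44.4 at place 20287 of the pooled list, 31.6 at place 19128 in replicate 3 and 18.0 at place 25471 in replicate 4, and the start of CG15482 lay 302 bp downstream of its own. U5:14B had 32.5 at place 29156 of the pooled list and 30.0 at place 20354 in replicate 3, and no summit in replicate 4. All of these lay in the lower part of their lists or in 1 replicate.

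U5:35D (FBgn0003936) had summits in replicate 3, the stronger with 64.5 at place 7390, 308 bp downstream, and none within 500 bp in replicate 4 or the pooled list. A thresholded summit with a signal of 1228.5, at place 52, lay 518 bp downstream of its start, just beyond the 500 bp window and 86 bp from the start of the protein-coding gene ND-B17. It was the nearest of the summits outside the window, the next being 967 bp from U5:38ABb, and the furthest inside was the 420 bp of U6:96Ab.

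The remaining 17 genes had no summit within 500 bp in any list. They were U1:82Eb, U1:95Cb, U1:95Cc, U2:14B, U2:38ABa, U2:38ABb, U4:25F, U4:38AB, U5:23D, U5:38ABa, U5:38ABb, U6:96Aa, U4atac, U6atac, U12, 7SKb and LU. The 5 genes of the cluster at 38AB (U2:38ABa, U2:38ABb, U4:38AB, U5:38ABa and U5:38ABb) all lie in introns of sick and were among them. U1:95Cb and U1:95Cc lie in an intron of CG34355, at lower coordinates of the same arm than U1:95Ca. Within 1 RNA class, genes with strong peaks and genes with none therefore occurred together.

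**Figure D4:**
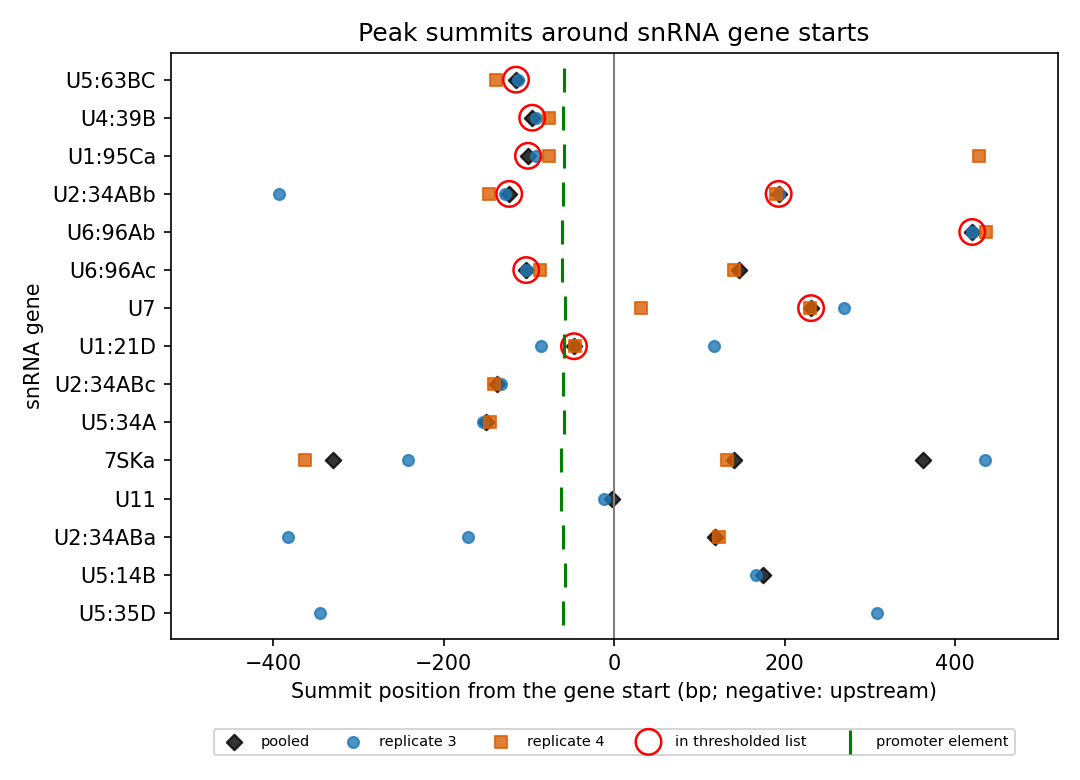
Position of every peak summit within 500 bp of the start of an snRNA gene, in bp along the gene (negative, upstream), in the pooled, replicate 3 and replicate 4 lists, with red rings for summits in the thresholded list and green marks for the first base of the element ATTCNCAA. The rings of U5:63BC, U4:39B, U1:95Ca and U6:96Ac and the stronger of the 2 rings of U2:34ABb stand 96 to 123 bp upstream, just beyond the green marks, whereas the weaker ring of U2:34ABb stands 193 bp downstream and that of U7 231 bp downstream.

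By RNA class, a thresholded summit was found at 2 of 5 U1 genes, 1 of 6 U2 genes, 1 of 3 U4 genes, 1 of 7 U5 genes, 2 of 3 U6 genes and the single U7 gene. None was found at the 4 genes of the minor spliceosome, U11, U12, U4atac and U6atac, at the 2 7SK genes or at LU. The major spliceosome as a whole had 7 of 24, and the same rule called 15.0% of all annotated genes. Classes of 1 to 7 genes allow no comparison between RNA polymerase II and III genes, and the U6 count rests on 1 shared summit. Nor can the 4 genes of the minor spliceosome be set apart from the major one or from that share.

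Of the 16 snRNA genes whose start lies inside a protein-coding gene, 2 had a thresholded summit, against 6 of the 16 that lie outside. The 2 were U4:39B and U7, both on the strand of the host gene. A coding start lay within 500 bp of 3 snRNA gene starts, and 1 of these, U2:34ABb, had a thresholded summit. By arm, the counts were 3 of 16 genes on 2L, 2 of 4 on 3L, 3 of 10 on 3R and 0 of 2 on X. None of these splits was made over all annotated genes, of which 15.0% had a thresholded summit wherever they lie. With so few genes in each part, no difference by position or arm can be read from these counts.

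Beyond the summits within 500 bp, 2 snRNA genes had their nearest thresholded summit 500 to 1000 bp away, 4 had it at 1000 to 2000 bp, 3 at 2000 to 5000 bp, and 15 (46.9%) at over 5000 bp. The nearest thresholded summit was over 5000 bp away for 59.8% of protein-coding, 45.4% of snoRNA and 37.6% of tRNA genes. Of the 24 snRNA genes without a summit within 500 bp, 15 thus had none within 5000 bp either.

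Motif matches were sought in the 250 bases before to 50 after each start, on both strands. TTCNCAAC, a core of the PSEA that overlaps ATTCNCAA, was found at 8 of 8 snRNA genes with a thresholded summit and at 14 of 24 without one (58.3%). The 8 include U6:96Ab and U7, whose thresholded summits lay 481 and 289 bases downstream of the first base of ATTCNCAA. The 14 include U2:34ABc, whose only match was on the opposite strand, at -236. TTCNCAAC was found at 3.10% of tRNA, 4.09% of snoRNA and 4.30% of protein-coding genes. Restricted to the strand of the gene and to first bases 75 to 35 upstream, it was found at 8 and 13 (54.2%) of these snRNA gene sets, against 0.316% of protein-coding genes. The shorter ATTCNCAA, chosen after the sequences were seen, was found there at 96.9% of snRNA genes, against 0.294% of protein-coding genes. The 2 spellings of the core thus gave different pictures, since the shorter one was as frequent in front of snRNA genes without a peak.

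The match is a description of letters and not of a bound site. Within 100 bp of a summit, TTCNCAAC occurred at 179 of all 6273 arm peaks (2.85%) and ATTCNCAA at 251 (4.00%), so nearly all peaks of tagged mod(mdg4) lacked these letters. It occurred around the 6 upstream summits of snRNA genes, and not around the downstream summits of U2:34ABb and U7. The thresholded summit lay 63 bases upstream of the first base of the element at U2:34ABb, 42 bases upstream at U6:96Ac and 12 bases downstream at U1:21D.

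GAGAG, the core bound by the GAGA factor, was found at 5 of 8 snRNA genes with a thresholded summit and at 4 of 24 without one (16.7%), against 29.7% of protein-coding genes. The 5 include U6:96Ab and U7, whose matches, at -219 and -136, lay far from the downstream summits that counted for them. Around the summits GAGAG was present at U5:63BC, U2:34ABb (upstream) and the U6 summit, and in 27.4% of all arm peaks. CGATA, the core of the BEAF-32 site, was found at 4 of 8 and at 14 of 24 (58.3%), against 47.4% of protein-coding genes. Many of these matches repeat between copies of an RNA. A match had its first base at -1 in all 6 U2 genes, reaching into the RNA, and at 37, within the RNA, in all 3 U6 genes. TATCGATA, the DNA replication-related element, which contains CGATA, was found at no snRNA gene, against 9.36% of protein-coding genes. GGTCACACT, the core promoter element known as Motif 1, was also found at none, against 6.05% of protein-coding genes. TGCATA, part of the su(Hw) site, was found at 1 of 8 and at 8 of 24 (33.3%), against 15.4% of protein-coding genes.

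TATAAA was found at 3 of 8 snRNA genes with a thresholded summit and at 12 of 24 without one, against 45.8% of protein-coding genes. TATATA, also chosen after the sequences were seen, was found at 3 of 8 and at 6 of 24 (25.0%), against 23.8% of protein-coding genes. On the strand of the gene and close upstream of the start, where an RNA polymerase III snRNA promoter has its TATA box, its first base lay at -28 at U6:96Ab and at -30 and -28 at U6:96Ac, and at -31 and -29 at U6:96Aa, which had no peak. TATAAA lay at -31 at 7SKa and at -30 at U6atac, neither of which had a thresholded summit. None of these motif counts was tested between genes with and without a peak.

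Because several snRNA genes are near-identical copies, reads inside them may match more than one place, and no label or file header says how such reads were treated. The U1 RNAs were 98.2 to 100% identical in pairs, the U2 RNAs 98.4 to 100% and the U6 RNAs 100%. The U4 RNAs were 73.8 to 94.4% identical and the U5 RNAs 78.3 to 96.1%. The 100 bases upstream were 59.6 to 67.6% identical in U1 pairs, 52.9 to 90.0% in U2 pairs, 53.2 to 58.2% in U4 pairs, 50.9 to 81.7% in U5 pairs and 59.4 to 62.9% in U6 pairs. In U5:14B and U5:38ABb the upstream bases, at 81.7%, were as alike as the RNAs, at 80.9%. U1:95Ca and U1:95Cb had identical RNAs and 60.0% identity upstream, and of the pair only U1:95Ca had a peak in any list. The strongest U5 peak, at U5:63BC, likewise stood upstream of a gene whose first 100 upstream bases were 50.9 to 58.3% identical to those of the other U5 genes.

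All words of 32 bases in the 250 bp upstream of the start occurred once in the genome at 8 of 8 snRNA genes with a thresholded summit and at 21 of 24 without one. The lowest share was 87.7%, at U2:38ABa. In the 250 bp downstream, which include the RNA itself, the share of such words ranged over 26.0 to 100%, with a median of 63.5%, at genes with a thresholded summit and over 0 to 100%, with a median of 71.7%, at genes without one. Upstream summits thus lay in sequence that words of this length place uniquely. Among genes with a thresholded summit, only U7 reached 100% downstream, and its thresholded summit, 231 bp downstream, lay in that stretch. At the others the weight of downstream signal cannot be judged. The read length was not stated either.

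Genes for proteins that act with snRNAs were counted by the same rule at their own starts, in lists written with earlier results of these data known. Of 72 listed genes, 68 were matched and 15 (22.1%) had a thresholded summit, against 16.5% of protein-coding genes. By list, the counts were 6 of 21 snRNP proteins (28.6%), 3 of 14 Integrator subunits (21.4%), 2 of 9 promoter factors (22.2%), 2 of 12 Sm and LSm proteins (16.7%) and 2 of 12 assembly and transport factors (16.7%). The shares of 16.7% were near that of protein-coding genes, and the others were above it. None was tested, and with 9 to 21 genes in a list no difference can be read from these shares.

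Among them, 2 genes had peaks just below that of U5:63BC in the thresholded list. asun encodes a subunit of Integrator, the complex that cleaves the 3′ end of nascent snRNA, and had a summit 115 bp upstream of its start with a signal of 1080.0, at place 83, at place 110 in replicate 3 and 68 in replicate 4. SmD3 encodes a member of the Sm ring that snRNAs carry, and had a summit 88 bp upstream with 1043.5, at place 92, at place 113 in replicate 3 and 82 in replicate 4. Both genes held nearly the same place in the replicates.

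The other Integrator genes with a summit were IntS6, with a signal of 269.2, and IntS4, with 232.4. Of the promoter factors, Brf and Bdp1, which are parts of the RNA polymerase III factor TFIIIB, had 464.8 and 445.7, although replicate 4 had no summit within 500 bp of the Bdp1 start. Of the snRNP proteins, U2A, a protein of the U2 particle, had 496.8, and U4-U6-60K had 376.3. The U1 proteins snRNP-U1-70K and snRNP-U1-C had 351.7 and 241.4. Lsm11, a protein of the U7 particle, had 174.3, the cap-binding protein gene Cbp20 had 223.3, and Glos, listed as Gem4a, had 113.5. No gene of the SNAPc subunits Pbp45, Pbp49 and Pbp95 had a thresholded summit within 500 bp of its start.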

How the data were processed

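The authors deposited peak lists of 10 columns (narrowPeak layout, no header) for dm6, one for each replicate, one for pooled reads, and the list that passed the optimal IDR (irreproducible discovery rate) threshold. The signal of a peak is, as deposited by the authors, its enrichment over a control library, on a scale that differs between lists. The deposited -log10 q reached 2.46 in 2763 thresholded peaks and was not used to order peaks. Chromatin was sheared to 200 to 800 bp, per the labels. The peak caller, the IDR threshold, the read length and the handling of multiply matching reads were not given in the sources used here. Lists on dm3 were not used here.

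Peaks were placed by their summits, and ordered by signal within a list. Peaks were joined to Ensembl release 115 genes on the same assembly with Python 3.11.15, NumPy 2.4.6, pandas 2.3.3, SciPy 1.17.1 and Biopython 1.88, and figures used matplotlib 3.10.9. Identities come from global pairwise alignments, which give a sizeable value even for unrelated sequence. Counting scripts were tested on simulated data. Intervals are exact 95% binomial intervals that cover the number of genes only. Nothing was tested, since the design has 1 group of 2 replicates. The members, gene lists and motifs were chosen with earlier results of these data known. Each snRNA gene is named, and up to 4 genes of each protein list by signal. SmG, LSm2, LSm5 and LSm6 were not matched.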

Additional observations from a re-analysis of the deposited data

How the results depend on the processing

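The count of 8 snRNA genes with a thresholded summit ranged over 6 to 12 under the other settings. It was 7 within 250 bp and 10 within 1000 bp, 6 in the 3147 strongest thresholded peaks, 12 in the strongest 12588 pooled peaks and 6 where the peak interval had to cover the start. It was 7 of the 29 genes with no coding start within 500 bp and 8 of 31 after starts within 500 bp were merged. The merge could not lower the count, because it joined only a pair of genes that both lacked a thresholded summit. The U6 genes that share a summit stayed apart, with starts more than 500 bp from each other, so their double counting was not tested. From replicate 4 alone (without replicate 3) the count was 8, of which 7 were shared, with U7 lost and 7SKa gained. From replicate 3 alone it was 7, all shared, with U1:21D lost. The distinct summits numbered 5 among those 3147, against 8. Of 13945 protein-coding genes, 2295 were called as reported, 1766 within 250 bp, 2915 within 1000 bp and 3278 in the strongest 12588 pooled peaks. Their count was 1392 among the 3147 strongest and 1444 where the interval had to cover the start. It was 2648 from replicate 4 alone and 2412 from replicate 3 alone. The median place of the nearest summits of snRNA genes was 885.5 among the 3147 strongest and 3129 in the doubled pooled list, against 1726.5. Their median distance was -71.5 bp within 1000 bp, and -92 to -76 bp with 1 replicate left out, against -98.5 bp. The smaller list or the narrower rule itself lowers a count, and no other cause was tested. The 15 protein genes ranged over 10 to 18. No paired analysis was possible because the 2 replicates form 1 group. Read depth is unknown, so whether a gene without a peak lacked signal or lacked reads could not be judged.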
